A study of Macaca mulatta with 24 samples.

Results

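SERPINA1 and SERPINA2 are neighbouring members of the serpin A (alpha-1 antitrypsin-like) gene family, and their transcripts were followed here in the ileum of rhesus macaques after total-body irradiation (TBI). The members were all probes to which the deposited normalized ileum table gives the symbol SERPINA1 or SERPINA2, which came to 4 of the 43603 non-control probes on the array: 3 for SERPINA1 and 1 for SERPINA2. Both genes were chosen by their measured levels in these same arrays, which were already known, so their levels and differences are described without a test. The 24 arrays each held RNA of whole ileal tissue from 1 monkey. The unirradiated controls, labelled day 4, numbered 4 and served every comparison. The irradiated monkeys had received 6.7 Gy or 7.4 Gy of cobalt-60 gamma rays and were sampled on day 4 (4 animals at each dose), day 7 (4 animals at each dose) or day 12 (2 animals at each dose). All were young adult male rhesus macaques. The labels' treatment text gives 21 days where the titles, the day field and the methods give 12, and day 12 is used throughout. Because the RNA came from whole tissue, fewer cells of a type and less RNA per cell cannot be told apart in any value below.

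Alpha-1 antitrypsin, the product of SERPINA1, is a secreted inhibitor of serine proteases whose main physiological target is neutrophil elastase. It works as a suicide substrate: the protease cleaves an exposed loop of the inhibitor and is trapped in a covalent complex. The liver makes most of the circulating protein as an acute phase reactant, and enterocytes and Paneth cells of the small intestine, monocytes and macrophages also express it. SERPINA2 arose from a duplication of SERPINA1, and in humans it is regarded as a pseudogene or a poorly secreted relative.

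In the RefSeq gene table of the T2T-MMU8v2.0 assembly, both genes lay on chromosome 7 in a cluster with 11 protein coding genes, and SERPINA1 (gene 701361) was the next protein coding gene after SERPINA2 (gene 701220, listed there as LOC701220). A long noncoding RNA gene, LOC106999554, overlapped the SERPINA2 gene in that table. The probe sequences were not analysed here, so whether the SERPINA2 probe also takes up RNA of SERPINA1, of the overlapping gene or of another transcript was not tested. Of the SERPINA1 probes, A_01_P018593 (probe 1) and A_01_P1750896 (probe 2) target the same RefSeq transcript and were well above background on 24 of 24 arrays. The remaining SERPINA1 probe, A_01_P1686726 (probe 3), targets an Ensembl transcript and was well above background on 1 array. The SERPINA2 probe, A_01_P1810746, was well above background on 24 of 24 arrays. Levels below are log2 intensities minus the 75th percentile of the same array, so 0 is the level of a probe at that percentile, and levels of different probes are not compared with each other.

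SERPINA2 was lower in every irradiated monkey than in any unirradiated one. Of the 14187 genes measured, 0.352% likewise had no overlap, in either direction, between the 20 irradiated arrays and the 4 controls, and by single group the share was 11.6% and 17.2% on day 4 after 6.7 and 7.4 Gy, 8.61% and 8.34% on day 7, and 22.6% and 19.1% on day 12. Since SERPINA2 was chosen for these levels, nothing is read from those shares. The 4 control levels were -0.28, 0.15, 1.37 and 1.44, with a mean of 0.67 ± 0.87 (SD, n = 4), so the controls themselves fell into a lower and a higher pair. On day 4 at 6.7 Gy the levels were -1.78, -1.78, -2.10 and -2.17. On day 4 at 7.4 Gy they were -1.80, -1.97, -1.93 and -2.09. All 8 day 4 arrays sat below the lowest control, and the 2 doses overlapped. On day 7 the levels were -2.10, -1.83, -2.11 and -1.87 after 6.7 Gy. After 7.4 Gy they were -1.87, -2.06, -2.06 and -1.95. The 16 arrays of days 4 and 7 lay within a 1.31-fold range (SD 0.13), narrower than the 3.29-fold range of the 4 controls.

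On day 12 SERPINA2 stood higher than on the earlier days and still below the controls. At 6.7 Gy the levels were -1.34 and -1.54, and at 7.4 Gy they were -1.48 and -0.59. None of these 4 arrays overlapped the day 4 arrays of its dose, as held for 35.1% of all genes at 6.7 Gy and 35.4% at 7.4 Gy. The day 12 mean exceeded the day 4 mean by 0.52 (SE 0.36, from the SD pooled over groups) after 6.7 Gy and by 0.91 (SE 0.36) after 7.4 Gy, on the log2 scale. With 2 animals a group, 1 array weighed heavily: the 7.4 Gy day 12 difference from control was -2.15 without replicate 2 of that group and -1.26 without replicate 1.

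**Figure D1:**
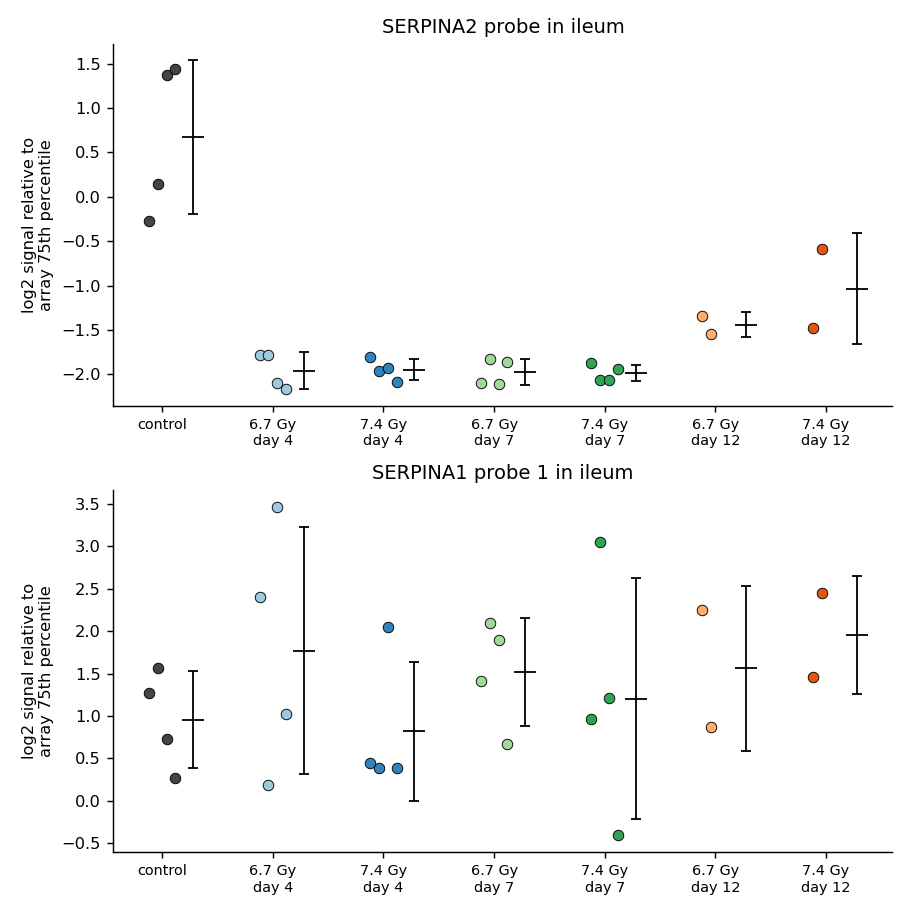
Level of the SERPINA2 probe (upper panel) and of SERPINA1 probe 1 (lower panel) by dose and day, as log2 intensity relative to the 75th percentile of each array. Each point is 1 monkey, and the bar beside the points is the group mean with its SD. SERPINA2 was at -0.28 or above in the 4 controls and at -0.59 or below in all 20 irradiated monkeys, whereas SERPINA1 overlapped the controls in every group.

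As a difference from control, SERPINA2 was 6.19-fold lower on day 4 after 6.7 Gy (log2 difference -2.63, SE 0.28) and 6.14-fold lower after 7.4 Gy (-2.62, SE 0.28). On day 7 it was 6.26-fold lower after 6.7 Gy (-2.65, SE 0.28) and 6.30-fold lower after 7.4 Gy (-2.66, SE 0.28). On day 12 it was 4.32-fold lower after 6.7 Gy (-2.11, SE 0.34) and 3.26-fold lower after 7.4 Gy (-1.71, SE 0.34). These 6 comparisons share their 4 controls. The higher minus the lower dose was 0.01 (SE 0.28) on day 4, -0.01 (SE 0.28) on day 7 and 0.41 (SE 0.40) on day 12, and the doses overlapped on each day. Groups accounted for 88.5% of the variance of SERPINA2 over the 24 arrays, against 38.9% for the median gene, and since the gene was chosen for this pattern nothing is read from that comparison.

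The order of the group means ran from 7.4 Gy day 7 (-1.98 ± 0.09), 6.7 Gy day 7 (-1.98 ± 0.15), 6.7 Gy day 4 (-1.96 ± 0.20) and 7.4 Gy day 4 (-1.95 ± 0.12) through 6.7 Gy day 12 (-1.44 ± 0.14) and 7.4 Gy day 12 (-1.03 ± 0.63) to the controls (SD, n = 4, and n = 2 on day 12). The 4 lowest means differed by less than their SDs, and the 2 day 12 means differed by less than the SD of the second.

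**Figure D2:**
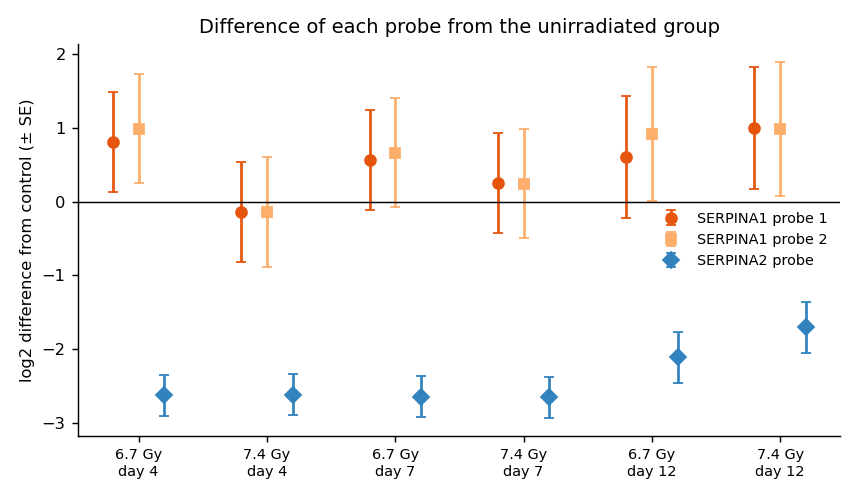
Log2 difference of the 2 bright SERPINA1 probes and of the SERPINA2 probe from the unirradiated group, with the SE of the fitted difference. SERPINA2 lay between -2.66 and -1.71 in the 6 groups, and SERPINA1 probe 1 between -0.14 and 0.998 with SEs of 0.68 to 0.83.

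SERPINA1 showed no separation of irradiated and unirradiated monkeys. Probe 1 read 1.27, 1.56, 0.73 and 0.26 in the controls (0.96 ± 0.58, SD, n = 4). On day 4 it read 2.40, 0.18, 3.47 and 1.03 at 6.7 Gy. At 7.4 Gy it read 0.44, 0.39, 2.05 and 0.39. Within 6.7 Gy day 4 the highest monkey was 9.77-fold above the lowest, and within 7.4 Gy day 4 replicate 3 stood alone above 3 close values. On day 7 the levels were 1.41, 2.10, 1.89 and 0.67 after 6.7 Gy. After 7.4 Gy they were 0.97, 3.05, 1.21 and -0.41, an 11-fold range. On day 12 they were 2.25 and 0.87 after 6.7 Gy, and 1.46 and 2.45 after 7.4 Gy. Every irradiated group overlapped the controls.

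The SERPINA1 differences from control were 0.81 (SE 0.68) and -0.14 (SE 0.68) on day 4 after 6.7 and 7.4 Gy, 0.56 (SE 0.68) and 0.25 (SE 0.68) on day 7, and 0.60 (SE 0.83) and 0.998 (SE 0.83) on day 12. Over all 24 arrays the level ranged 14.7-fold, from -0.41 to 3.47. The SD within groups was 1.03, higher than that of 98.2% of the genes tested, and groups accounted for 16.0% of the variance. The higher minus the lower dose was -0.95 (SE 0.68) on day 4, -0.31 (SE 0.68) on day 7 and 0.39 (SE 0.96) on day 12. Leaving out 1 array changed some signs: the 7.4 Gy day 7 difference was -0.37 without replicate 2, the highest of that group, and 0.78 without replicate 4, the lowest. The 6.7 Gy day 12 difference was -0.09 without replicate 1 of that group, and the 7.4 Gy day 4 difference was 0.06 without control replicate 2. The 6.7 Gy day 4 difference ran from 0.24 to 1.34 and the 7.4 Gy day 12 difference from 0.51 to 1.49 over the arrays left out, and the dose differences also took either sign, from -0.93 to 0.23 on day 7 and from -0.30 to 1.09 on day 12.

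The second bright SERPINA1 probe gave the same order of monkeys in most groups. Its levels correlated with those of probe 1 at r = 0.99 over 24 arrays and at 0.99 when group means were removed, and both probes were read on the same arrays from the same RNA. Its control levels were 0.72, 0.96, 0.01 and -0.42. Its range over all arrays was 20.3-fold, from -1.26 to 3.08, and its differences from control ran from -0.14 (SE 0.74, 7.4 Gy day 4) to 0.99 (SE 0.74, 6.7 Gy day 4). The wide spread between monkeys was therefore present in both probes. Probe 3 had intensities of 1.70 to 7.64 on 23 arrays, not well above background. On the array of 7.4 Gy day 7 replicate 2 it read 44.9, and the same monkey had the highest levels of that group on probes 1 and 2. SERPINA1 and SERPINA2 did not move together: r was -0.17 over 24 arrays and 0.17 over the 20 irradiated ones.

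**Figure D3:**
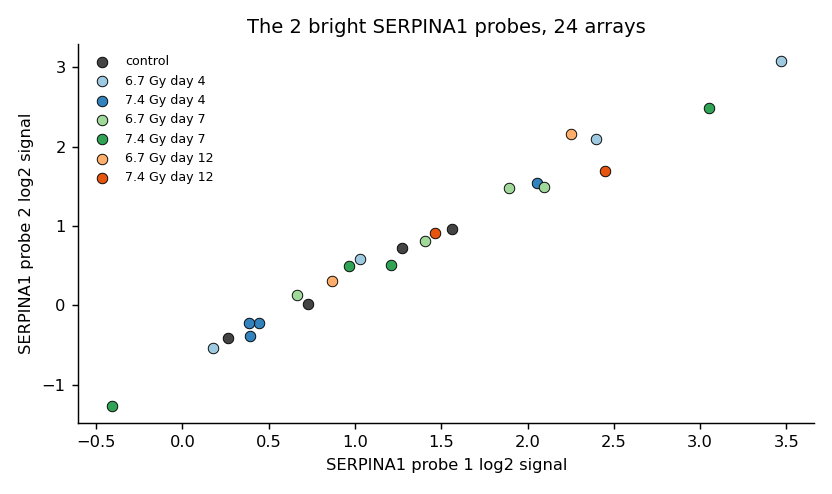
Log2 level of SERPINA1 probe 2 against probe 1, both relative to the array's 75th percentile, for the 24 arrays coloured by group. The points follow 1 line (r = 0.99), and the groups are mixed along it.

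The arrays lay on 6 slides of 4 positions and were scanned on 2 days. The controls were all at position 1 of slides 1 to 4, scanned on the first day, so array position and group are largely confounded. Against the control of its own slide, SERPINA2 differed on the 12 irradiated arrays by -1.78 to -3.48 (median -2.51). All 12 had to be lower, since every irradiated array lay below every control, so only the sizes are given. The 12 differences share 4 controls. On slides 1 and 2, whose controls were the lower pair, the differences were -1.78 to -2.32, and on slides 3 and 4 they were -2.71 to -3.48. Within the first scan day the 12 irradiated arrays had SERPINA2 levels of -2.17 to -1.34. The 2 irradiated arrays that shared position 1 with the controls both read -1.78. They lay on slides 5 and 6, scanned on the second day, so they differed from the controls in slide and scan day. With array position as a covariate, which can be estimated only for day 4, the SERPINA2 differences were -2.45 (6.7 Gy) and -2.27 (7.4 Gy). Both estimates rest on those 2 arrays. SERPINA1 probe 1 was lower than the control of its slide on 4 of 12 arrays, with differences of -1.97 to 2.20 (median 0.27).

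**Figure D4:**
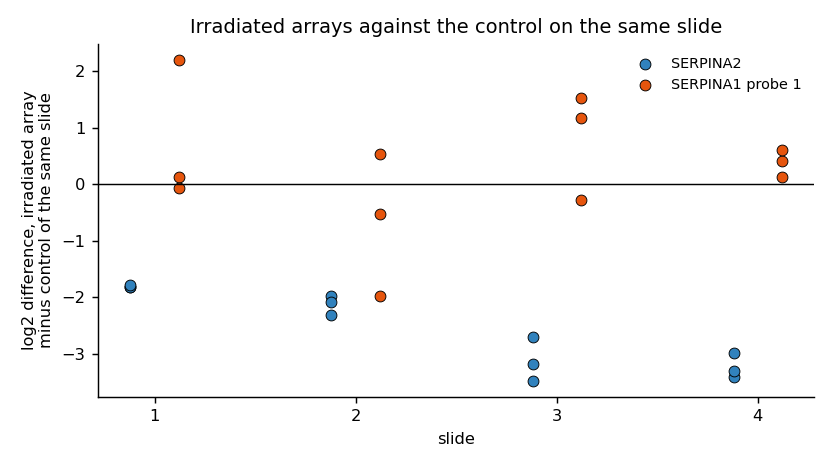
Log2 level of each irradiated array minus the control on the same slide, for slides 1 to 4, which hold the 4 controls. The 12 SERPINA2 points lie between -3.48 and -1.78, and the SERPINA1 points fall on both sides of 0.

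Of the 14185 other genes measured, an alpha globin transcript followed SERPINA2 most closely. Across the 24 arrays, SERPINA2 correlated with the probe named HBA (alpha chain of haemoglobin) at r = 0.99 and with HBB (beta chain) at r = 0.94. Since the controls stand apart in all 3, r was also taken over the 20 irradiated arrays, where it was 0.94 for HBA and 0.86 for HBB, and on deviations from group means, where it was 0.93 and 0.69. The median r over all genes was 0.05. No other gene of the 10 most alike kept r above 0.35 over the irradiated arrays.

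HBA read 0.37, 0.75, 2.07 and 2.37 in the controls, the same order as SERPINA2. It ranged from -2.41 to -1.50 on day 4 and from -2.25 to -1.66 on day 7. On day 12 it read -0.89 and -1.07 after 6.7 Gy, and -0.90 and 0.11 after 7.4 Gy. The monkey with the highest day 12 SERPINA2 level also had the highest day 12 HBA level, and no irradiated array reached the control range of HBA. HBB read 0.80 to 2.76 in the controls and -6.03 to -2.24 on days 4 and 7, and on day 12 it reached 0.20 in that same monkey. The means of HBA were 1.39 ± 0.98 in controls (n = 4) and -1.69 ± 0.60 in irradiated monkeys (n = 20), and those of HBB were 1.86 ± 0.93 and -4.19 ± 1.56 (SD).

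**Figure D5:**
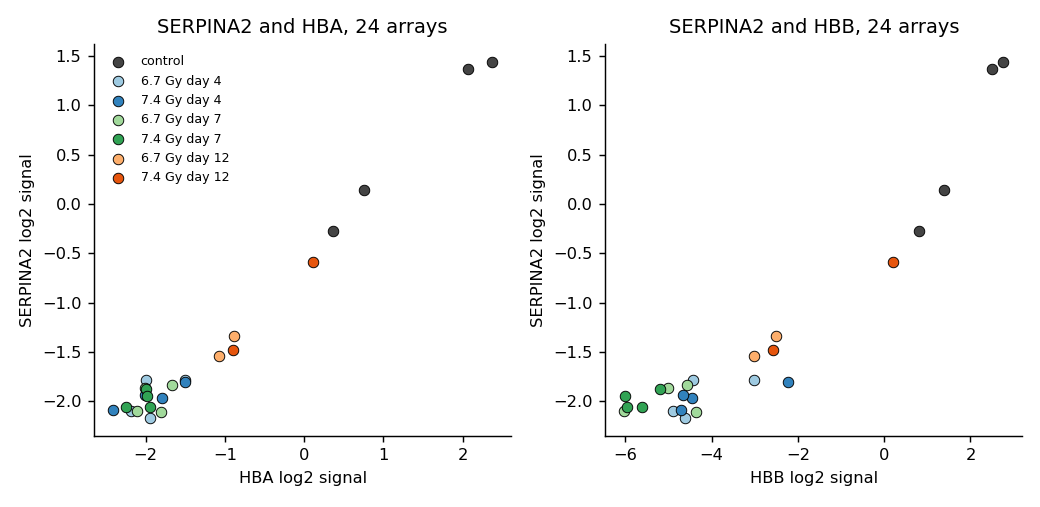
SERPINA2 level against HBA (left) and HBB (right), as log2 intensity relative to the array's 75th percentile, for 24 arrays coloured by group. SERPINA2 rises with HBA along 1 line (r = 0.99) from the day 4 and 7 arrays at the lower left through the day 12 arrays to the controls, and the part of the globins in the SERPINA2 difference was not tested.

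A second HBB probe had r = 0.93 to SERPINA2. Over the 7 probes of 5 other globin genes r ran from -0.16 (HBQ1) to 0.80, the highest being 1 of 3 measured HBG2 probes, which had r = 0.70 over the irradiated arrays, while the other 2 had 0.49 and 0.56 over all arrays. The probe that the deposited table names HBA2 and RefSeq assigns to HBA1 averaged 7.06 in controls and 6.93 in irradiated monkeys, with r = 0.39 to SERPINA2. The other red cell genes were also compared, from a list of 33 genes (globins, haem synthesis, membrane and erythroid regulators) chosen after the globin values were seen, of which 19 were measured. Without HBA and HBB, the median difference of the remaining 17 ran from -0.28 (6.7 Gy day 4) to 0.06 (6.7 Gy day 12), and their single values from -0.97 to 0.97. The summed linear level of the 19 genes, in units of each array's 75th percentile, was 138 to 187 in controls, 122 to 146 on day 4, 132 to 174 on day 7 and 140 to 180 on day 12, most of it from the bright HBA1 probe. Without HBA1 the sum was 26.2 to 38.7 in controls and 18.8 to 25.6 in the irradiated groups other than 6.7 Gy day 7, below every control, and 25.5 to 30.1 in 6.7 Gy day 7. Without HBA and HBB as well, the sum of the remaining 16 genes was 21.9 to 29.9 in controls and overlapped them in 4 of the 6 irradiated groups. HBA and HBB moved with SERPINA2, and their part in its difference was not tested.

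The other genes most like SERPINA2 included genes of B cells and other leukocytes: STAP1 (r = 0.79), CD1C (0.78), CD79B (0.77), RAC2 (0.78) and CCR9 (0.77), together with BMP3 (0.84), ZNF592 (0.77) and LOC719781 (0.78). Over the 20 irradiated arrays r was -0.10 to 0.16 for the leukocyte genes and 0.05 for BMP3. On deviations from group means, which include the spread among the controls, r was 0.66 for BMP3, 0.64 for ZNF592, 0.59 for CD79B, 0.57 for STAP1, 0.49 for CD1C, 0.22 for RAC2 and -0.03 for CCR9. CD1C, an antigen-presenting molecule of dendritic cells and B cells, was well above background in 4 of 4 controls and on 0 of the 20 irradiated arrays, so its r over those arrays has no measured level behind it. CD79B, a chain of the B cell receptor complex, was 0.09 ± 0.81 in controls (n = 4) and -1.05 ± 0.34 in irradiated monkeys (n = 20). The 7 measured B cell and plasma cell markers had a summed level of 10.7 to 35.4 in controls and 4.00 to 16.7 in irradiated monkeys, and their part in the SERPINA2 difference was not tested. For SERPINA1 the closest gene was SDHAF1, an assembly factor of succinate dehydrogenase (r = 0.71), and no other gene passed 0.7. SDHAF1 was picked as the highest of 14185 genes, whose median r was -0.04, and with quantile normalization its r was 0.64. TBCC (0.65), ID4 (0.63), B3GNT2 (0.62), PIGG (0.62), PTPN3 (0.60), LOC713344 (0.58), LOC704478 (0.58), NEUROD1 (0.58) and FAM82B (0.57) followed.

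Genes around alpha-1 antitrypsin were counted from lists drawn up by role, with limma over all 36108 probes tested, Benjamini-Hochberg adjustment and a call at an adjusted p under 0.05 and a 2-fold change, each gene by its brightest tested probe. The background was 1.16% of 14187 genes on day 4 after 6.7 Gy and 2.69% after 7.4 Gy, 0.345% and 0.733% on day 7, and 0.162% and 0.0423% on day 12. Between doses, 0 genes passed on days 4 and 7 and 1 gene (0.00705%) on day 12. The controls and most irradiated arrays differ in array position, and with position as a covariate 22 of the 23 day 4 calls of list genes given below no longer passed, VIL1 at 6.7 Gy being the exception (limma adjusted p = 0.024). All 23 kept their direction, with log2 differences 0.43 to 1.37 times as large (median 0.97), and 16 were still past 2-fold. By the methods' t-test after adjustment, genes of these lists passed only on day 4 after 7.4 Gy. They were 2 transcription factors, 1 goblet cell marker and 1 serpin outside clade A, so most limma calls below did not pass that test. For the counts at an unadjusted p under 0.05 given below, the share of all 14187 genes was 23.9% and 25.6% on day 4 after 6.7 and 7.4 Gy, 9.71% and 13.9% on day 7, and 9.49% and 8.82% on day 12. Of the other clade A serpins, 10 had probes, 6 were measured and limma called 0 in any of the 6 comparisons, with 0 to 2 at an unadjusted p under 0.05 in each and 0 by the methods' t-test after adjustment. SERPINA7, SERPINA9, SERPINA10 and SERPINA11 were too dim to be tested, and no probe carried the symbol SERPINA13. SERPINA3, alpha-1 antichymotrypsin and an acute phase protein, had the largest day 4 difference, 1.99 after 6.7 Gy (SE 0.79, limma adjusted p = 0.15), with levels of -0.56, -0.93, -0.29 and 3.03 against -1.84, -2.52, -2.15 and -0.22 in the controls. One monkey, 6.7 Gy day 4 replicate 4, stood far above the others. AGT, angiotensinogen, was 2.05 above control on day 12 after 7.4 Gy (SE 0.81, adjusted p = 0.49 in limma). SERPINA4, SERPINA5, SERPINA6 and SERPINA12 differed by -0.39 to 0.88. The median difference of the 6 ran from -0.17 (6.7 Gy day 4) to 0.36 (6.7 Gy day 12), beside -0.07 and 0.05 over all genes.

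Of 17 other serpins measured, SERPINB5 (maspin) was called higher on days 4 and 7 at both doses. It passed the filter on dim probes only through irradiated groups, where it was high, so these calls are no independent sign of a rise. Its level was -6.28 ± 0.84 in controls, 2 of which were above background, and -3.71 ± 0.87 (6.7 Gy) and -2.73 ± 0.17 (7.4 Gy) on day 4 (SD, n = 4). In limma the day 4 differences were 2.57 (adjusted p = 0.024) and 3.54 (adjusted p = 0.0016), and the day 7 differences were 2.94 (adjusted p = 0.022) and 2.66 (adjusted p = 0.027). The 6.7 Gy day 4 call was lost without control replicate 1, 2 or 3 or replicate 4 of its own group (2.15 to 2.62), the 6.7 Gy day 7 call without control replicate 1 or 2 or its own replicate 1, 3 or 4 (2.56 to 2.99), and the 7.4 Gy day 7 call without control replicate 1, 2 or 3 or its own replicate 2, 3 or 4 (2.28 to 2.71). With normexp background correction the 4 differences were 0.90, 1.45, 1.16 and 0.98, in the order above, and the 6.7 Gy day 4 and 7.4 Gy day 7 calls were lost. The second SERPINB5 probe passed in none of the 4, with differences of 0.69 to 2.02. SERPINE2, protease nexin 1, rose by 1.33 on day 4 after 7.4 Gy (adjusted p = 0.010 in limma), and a second SERPINE2 probe, at 0.86, was not called. SERPINB12 was not well above background in any control and entered the test only through groups where it was high. It was called on day 12 after 6.7 Gy, where it was at least 5.16-fold higher, a bound that was 18.5-fold from replicate 1 and 1.43-fold from replicate 2 of that group. The call was lost without that replicate 1, without control replicate 1, 2 or 4, with slide as a block and with normexp. SERPING1, the C1 esterase inhibitor, was 0.92 above control on day 4 after 7.4 Gy (limma adjusted p = 0.045), short of 2-fold. It passed with quantile normalization (1.05) and without control replicate 2 (1.04) or 4 (1.01), and its limma adjusted p was 0.54 with array position, 0.062 with scan day, 0.16 without control replicate 1 and 0.061 to 0.15 without 1 array of its own group.

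Among the proteases and their other inhibitors, few genes passed. Of 5 neutrophil and mast cell proteases, 6 neutrophil markers and 9 epithelial and secreted serine proteases, limma called 0 in any of the 6 comparisons, with at most 1, 2 and 2 genes of these lists at an unadjusted p under 0.05 in a comparison and 0 by the methods' t-test after adjustment. No probe carried the symbol ELANE (neutrophil elastase). Of 9 other serine protease inhibitors, A2M (alpha-2 macroglobulin) rose on day 4 after 7.4 Gy by 1.07 (adjusted p = 0.014 in limma), a call that fell just short of 2-fold without control replicate 1 or replicate 1 or 2 of its own group and with normexp, and was 0.46 with array position (adjusted p = 0.65 in limma). Of 18 acute phase proteins, CP (ceruloplasmin) rose on the same day and dose by 1.49 (adjusted p = 0.016 in limma), against 0.94 with array position, and its call was lost without replicate 1 of its own group. No acute phase protein passed in the other 5 comparisons.

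Of 13 measured transcription factors of liver and gut, 4 passed on day 4 after 7.4 Gy, all lower, among them KLF5 (-1.14), NR1H4 (the bile acid receptor FXR, -1.52) and NR5A2 (-1.08), with limma adjusted p of 0.00043, 0.034 and 0.0050. The NR1H4 call was lost in 8 of 18 alternatives, among them control replicate 1, 2 or 3 or replicate 1, 3 or 4 of its own group left out, and its difference was -0.77 with array position (limma adjusted p = 0.68). The NR5A2 call was lost without replicate 1 of its own group, and of 3 other NR5A2 probes, at -1.02 to -0.23, 1 was called. The list's median difference was -0.43 in that comparison and -0.44 after 6.7 Gy, where limma called 0 and 5 had an unadjusted p under 0.05, beside -0.05 and -0.07 over all genes. HNF4A was -2.19 ± 0.29 in controls and -2.56 ± 0.44 on day 4 after 7.4 Gy (n = 4) and was not called. Of 24 genes of protein folding and export from the endoplasmic reticulum, the route of secreted serpins, limma called 0 in any comparison, with 2 to 9 at an unadjusted p under 0.05 in each and 0 by the methods' t-test after adjustment. After 7.4 Gy, 22 of the 24 were lower on day 4 and 20 on day 7. Their median differences were -0.33 and -0.23, beside -0.05 and -0.02 over all genes, and -0.14 to 0.06 in the other comparisons with control. LMAN1, a cargo receptor for alpha-1 antitrypsin, read -3.50 ± 0.40 in controls and -4.00 ± 0.21 on day 4 after 7.4 Gy (SD, n = 4).

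Markers of cells that can express SERPINA1, or that a piece of ileum could hold, were set beside it. The tissue carried its ileal mark: FABP6, the ileal bile acid binding protein, read 7.00 to 9.19 on all 24 arrays. Of 16 enterocyte markers, VIL1 (villin) fell on day 4 by 1.32 after 6.7 Gy (adjusted p = 0.0011) and by 1.27 after 7.4 Gy (adjusted p = 0.00085), both in limma. KRT20 fell by 1.05 on day 4 after 6.7 Gy (limma adjusted p = 0.015), FABP1 fell by 1.22 after 7.4 Gy (limma adjusted p = 0.016), and LCT (lactase) rose by 1.94 after 7.4 Gy (limma adjusted p = 0.024), a call lost with slide as a block and without control replicate 2 or 3 or replicate 2 or 4 of its own group. A second LCT probe, not well above background in any control, read at least 28-fold higher in that group and entered the test only through groups where it was high. The KRT20 call was lost in 5 of 18 alternatives (control replicate 1 or replicate 2 or 4 of its own group left out, quantile normalization, array position), and the FABP1 call without control replicate 1 or replicate 1 of its own group. Of 7 goblet cell markers, CLCA1 and AGR2 fell on day 4 at both doses, with log2 differences of -1.22 and -1.12 after 6.7 Gy and of -1.08 and -1.61 after 7.4 Gy (limma adjusted p = 0.027, 0.041, 0.028 and 0.0032). After 6.7 Gy the CLCA1 call was lost in 7 of 18 alternatives (control replicate 3 or 4 or its own replicate 2 or 4 left out, among them) and the AGR2 call in 10 (each control in turn or its own replicate 2 or 3 left out, among them). After 7.4 Gy the CLCA1 call was lost in 10 (control replicate 1, 3 or 4 or its own replicate 2, 3 or 4 left out, among them), and the AGR2 call was lost in 1, array position. A second CLCA1 probe, at -0.98 and -0.97, was not called. Of 5 Paneth cell and 5 smooth muscle markers limma called 0 in any comparison, with at most 1 and 4 at an unadjusted p under 0.05 and 0 by the methods' t-test after adjustment. The 5 smooth muscle markers all had positive differences in each of the 6 comparisons, which share the 4 controls. The median was 0.71 on day 4 after 7.4 Gy and 0.25 to 0.41 in the others, beside -0.05 and -0.07 to 0.05 over all genes. The summed level of the 5 was 101 to 506 in controls and 287 to 562 in irradiated monkeys, and every irradiated group overlapped the controls.

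Of 8 macrophage markers, CD14 rose on day 4 after 7.4 Gy by 1.14 (limma adjusted p = 0.011), and of 7 crypt and proliferation markers, MYC rose on day 4 by 1.05 and 1.01 after 6.7 and 7.4 Gy (limma adjusted p = 0.021 and 0.015). The CD14 call was lost without replicate 1 of its own group, and the MYC calls without control replicate 2, without replicate 4 of 6.7 Gy day 4, or without replicate 1 or 3 of 7.4 Gy day 4. Of 6 hepatocyte markers measured, CPS1, which enterocytes also express, rose on day 7 by 1.25 and 1.11 (limma adjusted p = 0.017 and 0.023), calls lost in 4 and 6 of 17 alternatives (without control replicate 4, without replicate 1, 2 or 4 at 6.7 Gy or 2, 3 or 4 at 7.4 Gy, and at 7.4 Gy also with normexp and with slide as a block). The other CPS1 probe, at 1.37 and 1.09, was not called, and ALB was not well above background on every array of any group. On day 7, 6 of the 6 measured markers were positive after 6.7 Gy and 5 after 7.4 Gy. Their median differences were 1.11 and 0.77, beside 0.002 and -0.02 over all genes, and -0.12 to 0.59 in the other comparisons. Their summed level was 16.2 to 40.0 in controls, and 38.9 to 44.5 and 30.5 to 72.8 in those day 7 groups. Of 7 B cell and plasma cell markers, CD79B fell by 1.29 and 1.25 on day 4 and by 1.34 on day 7 after 7.4 Gy (limma adjusted p = 0.025, 0.016 and 0.026), and TNFRSF17 fell by 2.97 on day 7 after 7.4 Gy (limma adjusted p = 0.012). All 4 calls were lost without control replicate 4. The 6.7 Gy day 4 call of CD79B was also lost without control replicate 3, and its day 7 call was lost in 8 of 17 alternatives, among them control replicate 3 or any array of its own group left out. The second CD79B probe was called in all 3 comparisons.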

How the data were processed

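Total RNA of whole ileum from 24 rhesus macaques was labelled with Cy3 and hybridized by the authors to 1-colour rhesus arrays, 1 animal an array. The deposited scanner files hold intensity values from Feature Extraction 11.0.1.1, and the deposited normalized table holds log2 values that the authors made in GeneSpring GX 11.0 (75th percentile shift, centred per probe). Groups came from the titles. RNA of low integrity had been excluded by the authors.

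Each array's processed intensity was taken as log2 minus its 75th percentile over 43603 non-control probes. That percentile was 837 to 1330 intensity units, and 72.7% to 88.1% of probes were well above background. The number of arrays limits the precision. Outlier spots were dropped where another spot of the probe remained, and spots of 1 probe were averaged. The 36108 probes that passed the scanner's background flag throughout some group were tested, with limma 3.58.1 in R 4.3.3, 7 group means over 24 arrays, Benjamini-Hochberg adjustment over all of them, and a call at adjusted p under 0.05 and 2-fold. The methods' own test was a t-test, run here as an alternative. SEs of differences are limma's. The steps were tested on simulated data. Symbols came from RefSeq by accession (7091 probes matched) or from the deposited table, and 23674 probes had one, 16183 symbols in all.

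The lower bound for a gene dim in all controls used, per array, the lowest signal among probes well above background. Named genes were all member probes, the 10 genes most correlated with each, up to 4 called genes of each list, and a fixed set (SERPINA3, SERPING1, ELANE, HNF4A, LMAN1, FABP6, APOA4, ALB, DEFA5, CD163). Some genes that this rule names are not reported here. No probe carried the symbol APOA4, DEFA5 or CD163. Members and lists were chosen with earlier results of these data known. The alternatives were quantile normalization, the deposited log2 table, normexp with offset 50, blocks for slide, array position, scan day and replicate number, other filters and moderation, and leaving out each array. The scanner files hold no mean signal, so normexp used spot medians. P-values measure the spread between monkeys, and each group of day 12 has 2.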

Additional observations from a re-analysis of the deposited data

Results flagged for a closer look

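In the 7.4 Gy day 4 group, replicate 3 stood apart from the other 3 monkeys on SERPINA1 probe 1, where its gap to the nearest animal was 0.967 of the group's range, and on probe 2, where it was 0.911. These gaps are given as a description of 1 monkey far from the others, since both probes measured the same RNA and the gene was chosen by its levels. Without that monkey, the 7.4 Gy day 4 difference of SERPINA1 from control was -0.55.

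SERPINA1 probe 3, which enters no comparison, gave a signal well above background on the array of 7.4 Gy day 7 replicate 2, at a level of -4.64, and on none of the 4 controls.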

How the results depend on the processing

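The SERPINA2 difference from control was negative under every alternative run. Without leaving out arrays it was -2.81 to -2.27 on day 4, -2.70 to -2.32 on day 7 and -2.42 to -1.49 on day 12. The 2 genes' values moved by less than 1 SD within groups in 116 of 116 such results, and in 124 of 128 with 1 array left out. The other 4 were SERPINA2 differences that involve 7.4 Gy day 12, without 1 or the other of its arrays. For SERPINA1 that SD, 1.03, was larger than each of its fitted differences from control. These counts therefore cannot show that the SERPINA1 differences were stable. Leaving out 1 array in turn gave SERPINA2 differences of -2.95 to -2.37 (6.7 Gy day 4), -2.93 to -2.36 (7.4 Gy day 4), -2.96 to -2.39 and -2.97 to -2.40 (day 7), -2.43 to -1.86 (6.7 Gy day 12), and -2.15 to -1.26 (7.4 Gy day 12), with a day 12 dose difference of -0.035 to 0.85. SERPINA1 differences were 0.33 to 1.29 (6.7 Gy) and -1.10 to -0.0027 (7.4 Gy) on day 4. Those that changed sign, without leaving out arrays, were 7.4 Gy day 7 (-0.56 on the first scan day alone to 0.59) and the dose difference of day 12 (-0.52 with the slide block to 0.40). Scan day, the first scan day alone, normexp on spot medians and the mean of the 2 bright probes were chosen after seeing the data.

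Each array held a different monkey, so replicate numbers are not taken as pairs. Of 20 same-numbered pairs with a control, 7 had deviations correlated above 0.1 (r from -0.25 to 0.25). Differently numbered pairs were not computed, so this count cannot show pairing or its absence. With the replicate block, called genes numbered 161, 382, 47, 101, 9 and 6 in the 6 comparisons, against 164, 382, 49, 104, 23 and 6 without it, and the dose comparison of day 12 kept 1.

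The counts of called genes depended more on the setting. In the order 6.7 and 7.4 Gy on day 4, day 7 and day 12, normexp gave 107, 244, 30, 53 and, for 7.4 Gy day 12, 1. The array position covariate gave 92 and 77 on day 4, where the slide block gave 139 and 301, and the slide block gave 8 and 0 on day 12. Scan day as a term gave 0 for 7.4 Gy day 12. No filter on dim probes gave 14 for 6.7 Gy day 12, and only probes above background on all arrays gave 3 for 7.4 Gy day 12. The methods' t-test gave 0, 69, 2, 0, 0 and 0 after Benjamini-Hochberg, and without adjustment 282, 174, 232, 151 and 153 in the comparisons other than 7.4 Gy day 4. Between doses on day 12, quantile normalization gave 4 and the slide block 0. Without 1 array the counts were 107 to 196, 171 to 462, 26 to 52, 72 to 104, 2 to 16 and 0 to 16 against control, and 0 to 1, 0 to 0 and 2 to 19 between doses. The arrays that moved a count by over 1.5 times were control replicate 1 (107, 181, 26 and, for 6.7 Gy day 12, 9), control replicate 2 (10 and 1 on day 12), control replicate 4 (27 for 6.7 Gy day 7, 2 and 0 on day 12), 6.7 Gy day 4 replicate 2 (1 between doses), 7.4 Gy day 4 replicate 1 (171), 6.7 Gy day 7 replicates 1, 2 and 3 (30, 29 and 29), both of 6.7 Gy day 12 (4 and 8, and 2 and 5 between doses) and both of 7.4 Gy day 12 (16 and 13, and 19 and 5 between doses). Between doses, limma called 0, 0 and 1 genes on days 4, 7 and 12, with 58, 59 and 195 at a 2-fold change and an unadjusted p under 0.05. The cause of these changes was not tested.

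Of 30 calls of list genes, 0 reversed, 24 were lost when some single array was left out, and 26 under another setting, 22 of them under the array position covariate. The methods' t-test is not part of these counts. The arrays whose absence ended most of these calls were control replicates 1, 2 and 4 (10 each) and 3 (9) and 7.4 Gy day 4 replicate 1 (8). VIL1 on day 4 after 6.7 Gy was the 1 call kept under all alternatives other than the methods' t-test, which called 0 genes there after adjustment. Groups of 2 on day 12 and 4 shared controls limit every comparison.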
